A study of Mus musculus with 10 samples.

Results

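The mitochondrial carriers were taken as every probe set on the array whose only annotated symbol began with Slc25a or was Ucp1, Ucp2, Ucp3, Mpc1 or Mpc2. This gave 69 probe sets of 36 genes, out of 22690 probe sets and 12393 genes with 1 symbol. No probe set of Ucp2 or Mpc2 was analysed here. A gene is described by its probe set of highest mean signal, and 33 of the 36 genes were bright enough to test. Slc25a2, Slc25a24 and Ucp3 fell below the filter on dim probe sets, which was set on the mean over all arrays.

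Mitochondrial carriers are proteins of the inner mitochondrial membrane that move nucleotides, phosphate, keto acids, amino acids, cofactors and iron between cytosol and matrix. The Slc25 family shares a fold built of repeated pairs of membrane helices, and the uncoupling proteins belong to it. Mpc1 is a subunit of the pyruvate carrier, which has another fold and brings pyruvate to the matrix. Kidney tubules, above all the proximal tubule, are rich in mitochondria and live mainly on oxidation of fatty acids and other fuels.

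All mice were C57/BLACK6 males aged 7 weeks and weighing about 20 g, and all received the labelled nucleoside 4-thiouridine (s4U) at 200 µM on 2 occasions. Contralateral kidneys were the unclamped partners of left kidneys that had been clamped for 45 min under ether. Those mice were given s4U at 1 h and 2 h of reperfusion, and the contralateral kidney was taken at 3 h. Normal kidneys came from mice without surgery, given s4U at 0 h and 1 h, and were taken at 2 h. The labels describe no sham surgery, so clamping, ether, operation and timing cannot be told apart from the kidney group. Each kidney group had 2 arrays of total RNA, 2 arrays of amplified total RNA and 1 array of newly transcribed RNA, the fraction that carries s4U. The names of the preparations are those of the titles. The labelling protocol describes a linear amplification for every array, so how the arrays of total RNA differed in this step was not settled. RNA was from whole kidney, so fewer cells of a type and less RNA per cell cannot be told apart.

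The arrays differed in brightness and in 3' bias. For newly transcribed RNA the median intensity was 18.6 in the contralateral kidney and 70.2 in the normal kidney, and the other arrays lay at 26.6 to 59.7. Signal of the Gapdh controls at the 3' end over that at the 5' end was 68.9 for contralateral and 12.7 for normal newly transcribed RNA, 4.21 to 6.23 for amplified total RNA and 0.938 to 1.12 for total RNA. Within total RNA that ratio was 1.03 and 1.12 in contralateral kidneys, against 0.938 and 0.972 in normal kidneys, so these groups did not overlap. The ratio of the beta-actin controls was 24.8 for contralateral and 12.7 for normal newly transcribed RNA, and 7.34 to 8.29 for amplified total RNA. For total RNA the beta-actin ratio was 1.7 and 1.85 in contralateral kidneys, against 1.3 and 1.43 in normal kidneys. All 8 proximal tubule markers on the array, of 10 listed, were bright enough to test, and their summed signal was 0.369% to 0.482% of the array in total and amplified total RNA.

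The promoters of Slc25a33 and Slc25a30 are shown because these were the carriers that passed the test of a contralateral difference in both total and amplified total RNA. Both come from RefSeq (GRCm38.p6) and cover 250 bases before to 50 bases after the annotated start, read 5′ to 3′ on the minus strand. Slc25a33 lies at chr4:149774218-149774517 and Slc25a30 at chr14:75786988-75787287. Capitals mark matches, on either strand, to the E-box CACGTG, to the cAMP response half-site TGACG, to the GC box GGGCGG and to the CCAAT box.

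Slc25a33: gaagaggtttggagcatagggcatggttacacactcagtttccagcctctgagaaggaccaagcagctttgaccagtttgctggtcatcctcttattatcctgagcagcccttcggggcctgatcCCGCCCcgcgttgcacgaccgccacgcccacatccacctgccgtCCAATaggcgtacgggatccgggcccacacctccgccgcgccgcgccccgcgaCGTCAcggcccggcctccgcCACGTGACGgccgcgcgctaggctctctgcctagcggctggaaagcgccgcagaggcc

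Slc25a30: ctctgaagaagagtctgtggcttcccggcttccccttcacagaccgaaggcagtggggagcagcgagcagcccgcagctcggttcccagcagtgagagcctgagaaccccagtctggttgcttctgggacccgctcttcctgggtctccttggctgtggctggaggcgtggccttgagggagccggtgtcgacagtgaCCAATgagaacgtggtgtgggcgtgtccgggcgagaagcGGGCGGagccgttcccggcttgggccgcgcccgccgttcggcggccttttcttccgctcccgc

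The Slc25a33 promoter held 1 E-box, 2 cAMP response half-sites, 1 GC box and 1 CCAAT box, and the second half-site overlapped the E-box. The Slc25a30 promoter held 1 GC box and 1 CCAAT box. Neither window held the other motifs searched on both strands, namely the AP-1 site TGACTCA, the glucocorticoid half-site AGAACA, the nuclear receptor half-site AGGTCA and the TATA box TATAAA. Of 32851 RefSeq promoters of the same length, 7.15% held the E-box, 20.8% the cAMP half-site, 35.7% the GC box and 37.4% the CCAAT box. The AP-1 site was in 5.2% of them, the glucocorticoid half-site in 19%, the nuclear receptor half-site in 16.3% and the TATA box in 13.6%. Of the 36 carrier genes, 29 had 39 of these promoters. The GC box was in 34 of the 39, the CCAAT box in 20, the cAMP half-site in 12 and the E-box in 6. The nuclear receptor half-site was in 6 of the 39, the glucocorticoid half-site in 2, the AP-1 site in 1 and the TATA box in 0. The GC content was 66% for Slc25a33 and 66.7% for Slc25a30, against a median of 52.7% over all promoters. These matches describe letters in the window and say nothing of binding.

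Slc25a33, which carries pyrimidine nucleotides into mitochondria, was higher in the contralateral kidney in either tested preparation. Its log2 signal was 8.78 and 8.47 in contralateral total RNA, against 6.83 and 6.37 in normal total RNA. Amplified total RNA gave 8.96 and 8.72 in contralateral kidneys, against 6.96 and 7.23 in normal kidneys. Contralateral arrays were the higher ones in both preparations and the groups did not overlap. With 2 arrays a side this is weak by itself, since Slc25a44 and Slc25a47, which did not pass, also had no overlap in either preparation. How often groups did not overlap over all tested genes was not counted. The log2 difference was 2.03 ± 0.18 in total RNA, a 4.08-fold rise (limma adjusted p = 0.00039, where ± is limma's standard error). For amplified total RNA it was 1.75 ± 0.18, a 3.36-fold rise (adjusted p = 0.000218). Between the newly transcribed arrays, with 1 array a side and no test, the signal was 8.86 in the contralateral kidney and 8.11 in the normal kidney. The effects in total and amplified total RNA differed by 0.28 ± 0.26, which did not pass (adjusted p = 0.631).

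**Figure D1:**
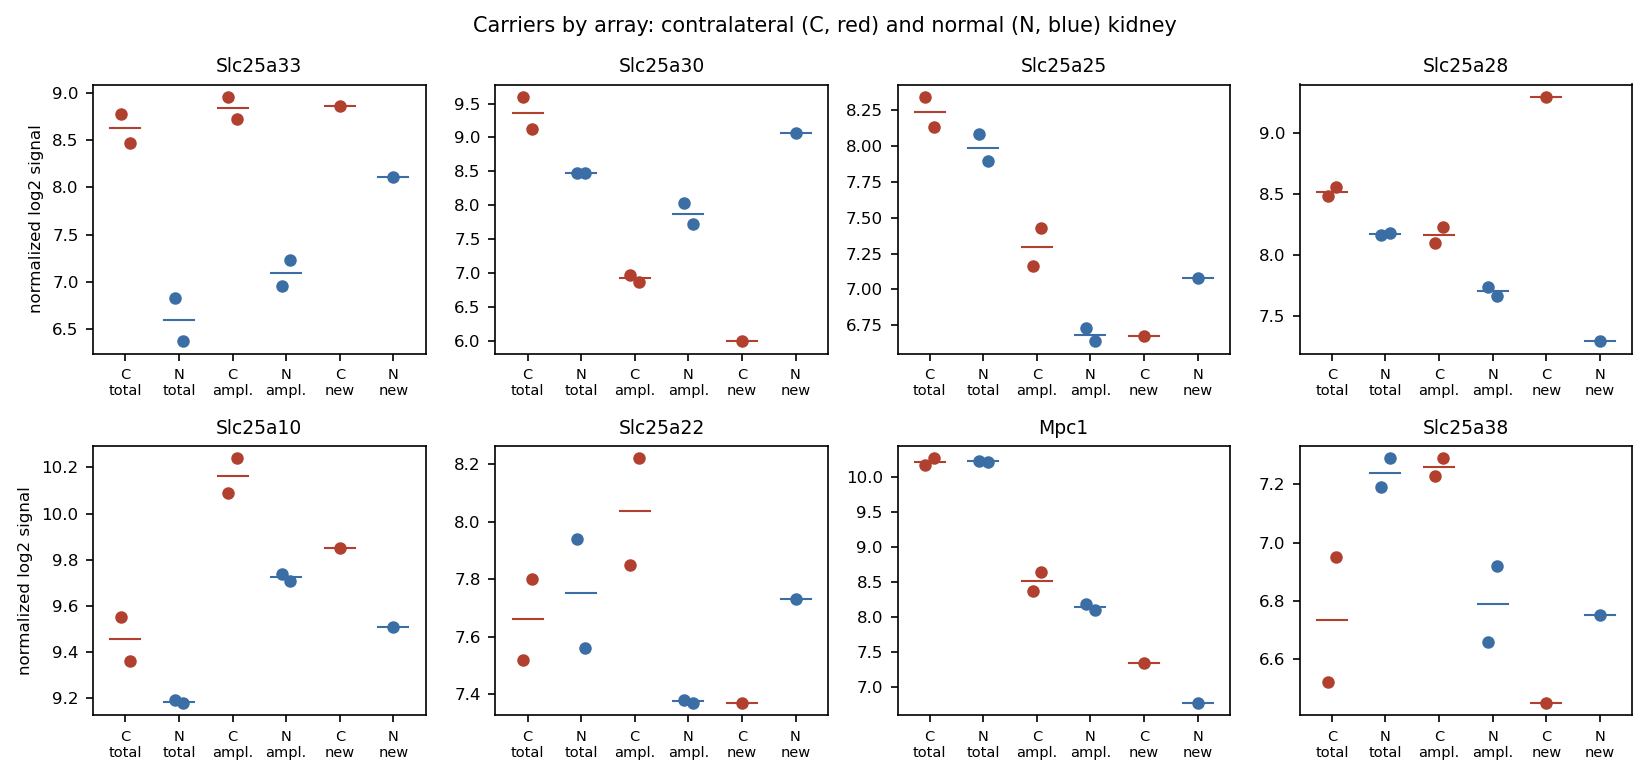
Normalized log2 signal (vertical axes, scaled per gene) of 8 carriers on each of the 10 arrays, for total, amplified total (ampl.) and newly transcribed (new) RNA, with red points for contralateral and blue points for normal kidneys and a bar at each group mean. Slc25a33 lies at 8.47 to 8.96 in contralateral and 6.37 to 7.23 in normal total and amplified total RNA, while Slc25a30 is higher in contralateral total RNA and lower in contralateral amplified total RNA.

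Over all 3 preparations together, 1 of the 33 tested carriers rose and 0 fell, against a background of 0.53% of all 8300 tested genes higher and 0.0723% lower. The carrier that rose was Slc25a33, by 1.66 ± 0.20 on the log2 scale (limma adjusted p = 0.00898). At an unadjusted p under 0.05 the limma fit gave 4 carriers higher and 2 lower, against 7.83% of all tested genes higher and 6.81% lower. The median difference of the carriers was -0.07 and that of all tested genes 0.01, and with arrays scaled to a common 75th percentile the carriers' median turned to 0.08. Leaving out replicate 1 of either amplified group ended the Slc25a33 call, with adjusted p-values of 0.0516 without the contralateral array and 0.0504 without the normal one. With 6 group means in place of an additive model, 18 carriers passed, 7 higher and 11 lower, which is 54.5% of them against 44% of all tested genes (22.1% higher and 21.9% lower).

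In total RNA 2 of 33 carriers rose and 0 fell, which is 6.06% higher against a background of 1.41%, and 0% lower against a background of 0.398%. They were Slc25a33 and Slc25a30. An unadjusted p under 0.05 was reached by 4 carriers above and 4 below 0 in the limma fit, against 7.47% of all tested genes above and 6.98% below. The carriers' median difference was -0.04, close to the -0.03 of all tested genes. The ADP/ATP and phosphate carriers Slc25a3, Slc25a4 and Slc25a5, which serve oxidative phosphorylation, had differences of 0.02 ± 0.07, 0.15 ± 0.12 and 0.04 ± 0.09, none of which passed.

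In amplified total RNA 5 of 33 carriers rose and 1 fell. That is 15.2% higher against a background of 4.9%, and 3.03% lower against a background of 4.13%. Besides Slc25a33 the carriers that rose were Slc25a10, Slc25a22, Slc25a25 and Slc25a28, and Slc25a30 fell. The carriers' median difference was 0.14 and that of all tested genes 0.04, and 24 carriers lay above 0 and 9 below. Leaving out normal amplified replicate 1 left 1 carrier called (and 3.28% of all tested genes), leaving out normal amplified replicate 2 left 2 (3%), and leaving out contralateral amplified replicate 2 left 3 (8.31%). Without limma's intensity trend 3 were called (6.75% of all tested genes).

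**Figure D2:**
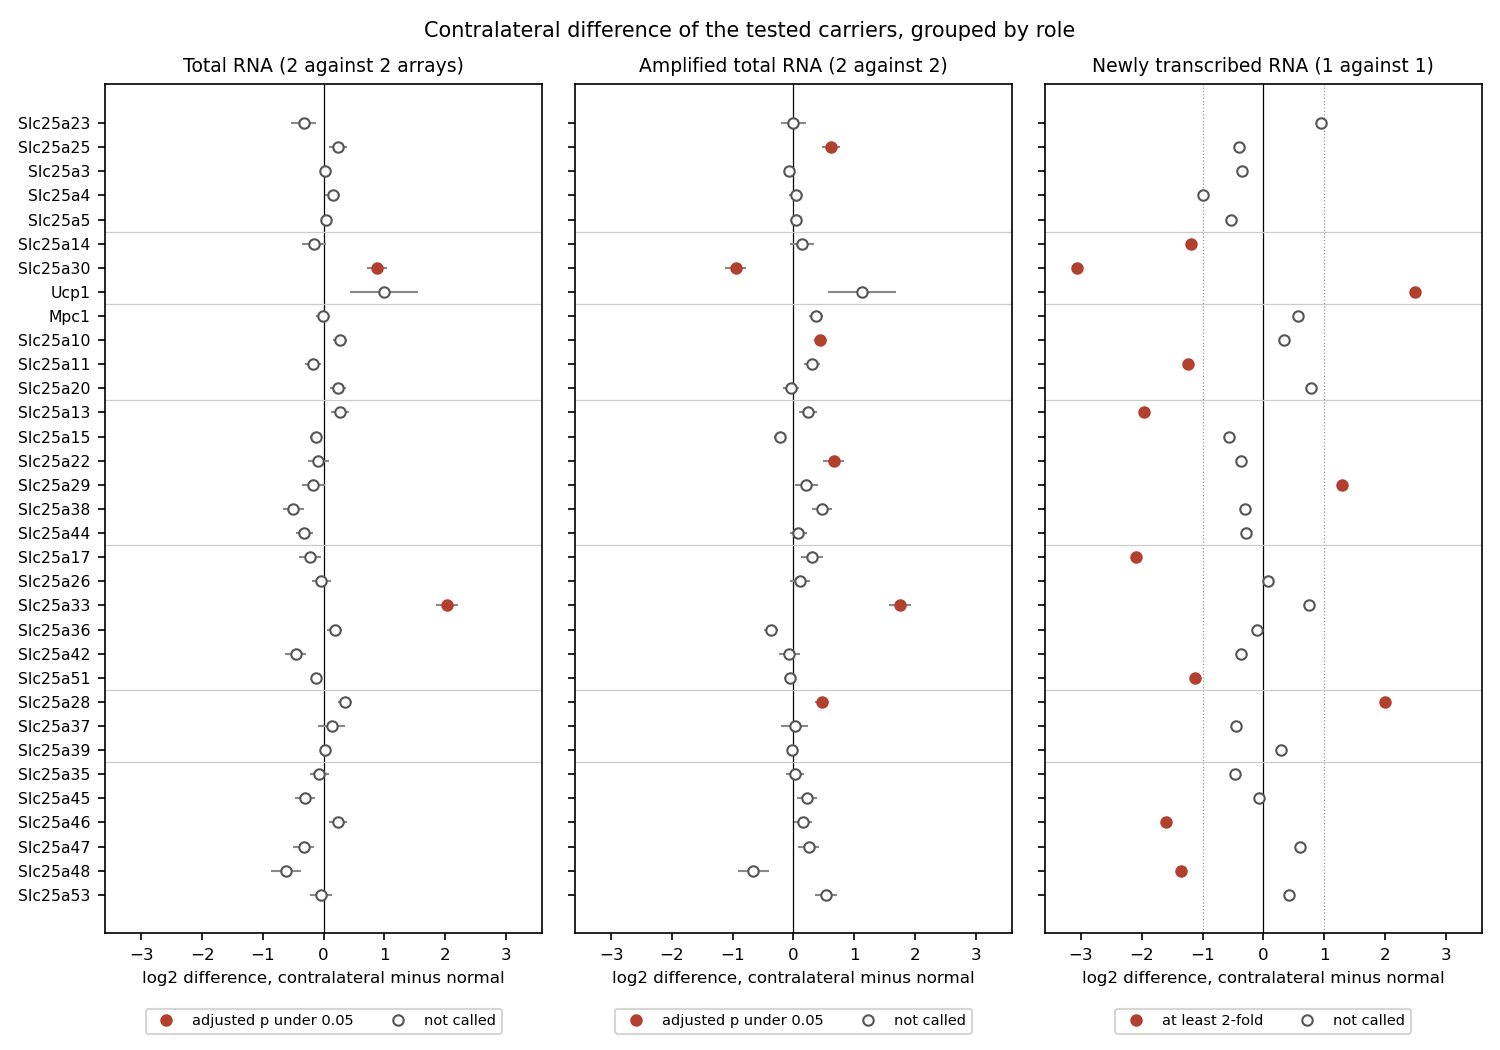
Log2 difference, contralateral minus normal (horizontal axes), of the 33 tested carriers in 3 RNA preparations, in rows set apart by role, with bars for limma's standard error where a test was made. Filled points passed an adjusted p of 0.05 or, for newly transcribed RNA with no test, reached 2-fold (dotted lines): 2 for total RNA, 6 for amplified total RNA and 11 for newly transcribed RNA.

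Slc25a25 is a calcium-regulated carrier that exchanges ATP-Mg for phosphate. Its log2 signal was 7.16 and 7.43 in contralateral amplified total RNA, against 6.73 and 6.64 in normal amplified total RNA. The groups did not overlap and the difference was 0.62 ± 0.15, a 1.54-fold rise (limma adjusted p = 0.024). In total RNA it was 8.34 and 8.13 in contralateral kidneys, against 8.08 and 7.89 in normal kidneys, a difference of 0.24 ± 0.15 that did not pass (adjusted p = 0.486). The newly transcribed arrays lay in the opposite order, with 6.68 in the contralateral kidney and 7.08 in the normal kidney.

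Slc25a28, mitoferrin 2, brings iron into mitochondria. Its log2 signal was 8.10 and 8.23 in contralateral amplified total RNA, against 7.74 and 7.66 in normal amplified total RNA. The difference was 0.47 ± 0.12 (limma adjusted p = 0.0283), with no overlap. In total RNA it read 8.48 and 8.56 in contralateral kidneys, against 8.16 and 8.18 in normal kidneys, and the difference of 0.35 ± 0.12 did not pass (adjusted p = 0.188). The newly transcribed arrays read 9.30 in the contralateral kidney and 7.29 in the normal kidney. Its relatives Slc25a37, mitoferrin 1, and Slc25a39, a glutathione carrier, had differences of 0.02 ± 0.22 and -0.03 ± 0.08 in amplified total RNA, and neither passed.

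Slc25a10 exchanges malate and succinate for phosphate. Its log2 signal was 10.09 and 10.24 in contralateral amplified total RNA, against 9.74 and 9.71 in normal amplified total RNA. The difference was 0.44 ± 0.11 without overlap (limma adjusted p = 0.025). In total RNA it read 9.55 and 9.36 in contralateral kidneys, against 9.19 and 9.18 in normal kidneys, which is 0.27 ± 0.11 (adjusted p = 0.267). The newly transcribed arrays read 9.85 in the contralateral kidney and 9.51 in the normal kidney. Its other tested probe set gave 0.31 ± 0.15 in amplified total RNA, which did not pass (adjusted p = 0.217), and -0.20 ± 0.15 in total RNA (adjusted p = 0.568). The other carriers of this role, Slc25a11 for oxoglutarate, Slc25a20 for acylcarnitines and Mpc1, did not pass in either preparation.

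Slc25a22 carries glutamate. In amplified total RNA its log2 signal was 7.85 and 8.22 in contralateral kidneys, against 7.38 and 7.37 in normal kidneys. These groups did not overlap and differed by 0.66 ± 0.17 (limma adjusted p = 0.0358). In total RNA the groups did overlap, with 7.52 and 7.80 in contralateral kidneys, against 7.94 and 7.56 in normal kidneys. The newly transcribed arrays read 7.37 in the contralateral kidney and 7.73 in the normal kidney, the opposite order to amplified total RNA. Slc25a22 was the only amino acid carrier of 6 tested that passed in amplified total RNA, and in total RNA none of the 6 passed by limma, with 0 above and 2 below 0 at an unadjusted p under 0.05. Its effect in total minus that in amplified total RNA, -0.75 ± 0.25, did not pass (adjusted p = 0.131).

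Slc25a30, a relative of the uncoupling proteins also known as kidney mitochondrial carrier protein, moved in opposite directions in the tested preparations. In total RNA its log2 signal was 9.60 and 9.12 in contralateral kidneys, against 8.48 and 8.47 in normal kidneys. Amplified total RNA gave 6.97 and 6.88 in contralateral kidneys, against 8.03 and 7.72 in normal kidneys. The newly transcribed RNA gave 6.0 in the contralateral kidney, against 9.06 in the normal kidney. Contralateral arrays were thus the higher ones in total RNA and the lower ones in the other preparations, with no overlap in total or amplified total RNA.

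The Slc25a30 difference was 0.88 ± 0.17 in total RNA (limma adjusted p = 0.0263) and -0.95 ± 0.17 in amplified total RNA (adjusted p = 0.00462). The effect in total RNA minus that in amplified total RNA was 1.83 ± 0.24 (adjusted p = 0.00132). The other tested probe sets differed in the same sense. The second probe set gave 1.16 ± 0.17 in total RNA (adjusted p = 0.00724) and -0.74 ± 0.17 in amplified total RNA (adjusted p = 0.0174). The third gave 0.85 ± 0.17 in total RNA (adjusted p = 0.0294), and its -0.35 ± 0.17 in amplified total RNA did not pass (adjusted p = 0.215). Their differences between the effects were 1.90 ± 0.24 (adjusted p = 0.00109) and 1.20 ± 0.23 (adjusted p = 0.0138). Between the newly transcribed arrays these probe sets differed by -2.16 and -1.32 on the log2 scale, and the probe set of highest mean by -3.06.

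Amplified and newly transcribed arrays also had the higher 3'/5' ratios given above, and the part of 3' bias in the Slc25a30 result was not tested. The call in total RNA was lost without contralateral total replicate 1 (0.64, limma adjusted p = 0.19), without normal total replicate 1 (adjusted p = 0.105) and without normal total replicate 2 (adjusted p = 0.178), as well as without the filter on dim probe sets (adjusted p = 0.0762) or the intensity trend (adjusted p = 0.0663). The call in amplified total RNA was lost without normal amplified replicate 1 (-0.79, adjusted p = 0.0637). The difference between the effects passed in each of the 10 fits that left out 1 array, though leaving out a newly transcribed array cannot change its estimate.

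**Figure D3:**
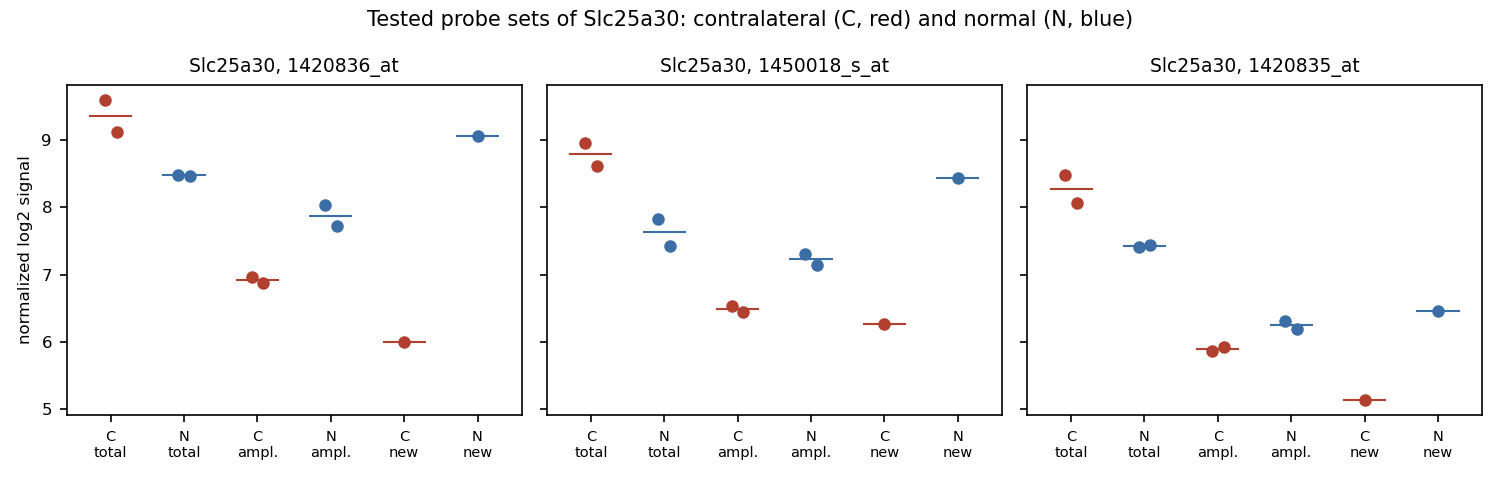
Normalized log2 signal (vertical axis) of the 3 tested probe sets of Slc25a30 on each of the 10 arrays, for total, amplified total (ampl.) and newly transcribed (new) RNA, with red points for contralateral and blue points for normal kidneys and a bar at each group mean. In each panel the contralateral points lie above the normal ones in total RNA and below them in amplified total and newly transcribed RNA.

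By the probe sets of highest mean, 1 of the 33 carriers had a contralateral effect that was greater in total than in amplified total RNA. The reverse held for 1 other. The backgrounds were 1.99% of all tested genes with a greater effect in total RNA and 0.747% with a smaller one. The first was Slc25a30 and the other Slc25a38, a glycine carrier needed for heme synthesis. Slc25a38 had a log2 signal of 6.52 and 6.95 in contralateral total RNA, against 7.19 and 7.29 in normal total RNA. Amplified total RNA gave 7.23 and 7.29 in contralateral kidneys, against 6.66 and 6.92 in normal kidneys. The groups did not overlap in either preparation and lay in opposite order. The same held for Slc25a44 and Slc25a47 by their probe sets of highest mean, and neither passed the test of the difference between the effects. Newly transcribed RNA gave 6.45 in the contralateral kidney and 6.75 in the normal kidney. The difference between the effects was -0.97 ± 0.24 (limma adjusted p = 0.0484), while the effects themselves, -0.50 ± 0.17 and 0.47 ± 0.17, did not pass. The call was lost in 7 of the 10 fits that left out 1 array, and leaving out a newly transcribed array cannot change its estimate.

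For Slc25a51, the NAD carrier, probe sets disagreed. A further probe set fell by 0.65 ± 0.18 on the log2 scale in amplified total RNA (limma adjusted p = 0.0438). The probe set of highest mean differed by -0.06 ± 0.09 there. In total RNA the further probe set differed by 0.51 ± 0.18, which did not pass (adjusted p = 0.212). Its effect in total minus that in amplified total RNA was 1.17 ± 0.26 (adjusted p = 0.0257), in the order seen for Slc25a30. For the probe set of highest mean this quantity was -0.06 ± 0.13 and did not pass. The 13 genes with more than 1 tested probe set had 24 further probe sets. Of these, 4 had another call in amplified total RNA, 0 in total RNA and 1, that of Slc25a51, in the difference between the effects. Those with another call in amplified total RNA were of Slc25a5, Slc25a10, Slc25a30 and Slc25a51. A further probe set of Slc25a5 rose by 0.31 ± 0.08 (adjusted p = 0.0392). Probe sets whose name ends in x_at can share sequence with near copies of a gene. Several probe sets of Slc25a4, Slc25a5 and Slc25a39 are of this kind, and their values are uncertain.

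Slc25a3, Slc25a5 and Slc25a39 are given on every array because their probe sets had the highest mean signals among the carriers. Slc25a3, the phosphate carrier, read 12.07 and 12.05 in contralateral total RNA, against 12.05 and 12.02 in normal total RNA, and 12.34 and 12.24 in contralateral amplified total RNA, against 12.36 and 12.38 in normal amplified total RNA. Slc25a5, an ADP/ATP carrier, read 12.15 and 11.99 in contralateral total RNA, against 12.03 and 12.03 in normal total RNA, and 12.21 and 12.27 in contralateral amplified total RNA, against 12.09 and 12.30 in normal amplified total RNA. Slc25a39 read 12.02 and 11.89 in contralateral total RNA, against 11.89 and 11.95 in normal total RNA, and 11.86 and 11.96 in contralateral amplified total RNA, against 11.99 and 11.89 in normal amplified total RNA. The groups overlapped in both preparations for Slc25a5 and Slc25a39, and in total RNA for Slc25a3. On the newly transcribed arrays Slc25a3 read 12.01 in the contralateral and 12.36 in the normal kidney, Slc25a5 11.52 and 12.05 in the same order, and Slc25a39 12.18 and 11.89.

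Newly transcribed RNA was measured on 1 array per kidney group, so its differences have no replicate check and no test. At least 2-fold differences were seen for 3 of 33 carriers higher in the contralateral kidney and for 8 lower. That is 9.09% higher against a background of 14.3% of all tested genes, and 24.2% lower against a background of 15.9%. The carriers' median difference was -0.35, with 12 above and 21 below 0, while that of all tested genes was 0.06. These directions depended on the scaling. With each array scaled to a common 75th percentile in place of quantile normalization, the median of all tested genes was 0.22, the share of 2-fold calls that were higher was 60.2% in place of 47.4%, and the carriers gave 7 higher, 7 lower and a median of 0.10.

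The carriers at least 2-fold higher were Ucp1, by 2.49 on the log2 scale, Slc25a28, by 2.01, and Slc25a29, a carrier of basic amino acids, by 1.29. Their differences under the other scaling were 2.61, 2.06 and 1.36. Those lower were led by Slc25a30 at -3.06. Slc25a17, the peroxisomal cofactor carrier, differed by -2.09, with 4.90 in the contralateral and 6.98 in the normal kidney. Slc25a13, an aspartate and glutamate carrier of the malate-aspartate shuttle, differed by -1.96, with 6.29 in the contralateral and 8.25 in the normal kidney. Slc25a46, an outer membrane protein tied to mitochondrial fusion and fission, differed by -1.60. The others were Slc25a48 at -1.35, Slc25a11 at -1.24, Slc25a14 at -1.19 and Slc25a51 at -1.13, and Slc25a4 was just short of 2-fold at -1.0. Some deposited intensities were near or below the 11.8 added before log2. They were 3.5 for Slc25a48 and 8.5 for Slc25a17 in the contralateral kidney, and 12.8 for Ucp1 in the normal kidney. Over alternative settings Slc25a48 ran from -2.19 to -0.69 and kept its call in 4 of 5. Slc25a17 ran from -2.63 to -1.39 and Ucp1 from 1.53 to 3.46. Under the other scaling Slc25a51 was at -0.25 and no longer 2-fold lower. Its further probe sets were at -0.14 and -0.30. Of the 24 further probe sets of the carriers, 7 had another call here than the gene's probe set of highest mean, and 9 had the opposite sign. Further probe sets of Slc25a4, Slc25a15, Slc25a20 and Slc25a44 were at least 2-fold lower where that probe set was not. A further probe set of Slc25a29 fell short of 2-fold at 0.98. By their probe sets of highest mean, none of the carriers 2-fold lower here passed in total or amplified total RNA apart from Slc25a30. That carrier passed as lower in amplified total RNA but as higher in total RNA. On the newly transcribed arrays the Gapdh 3'/5' ratio was 68.9 in the contralateral and 12.7 in the normal kidney. The beta-actin ratio was 24.8 and 12.7 in the same order. The part of 3' bias in the newly transcribed differences was not tested.

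Ucp1, the heat-producing uncoupling protein of brown fat, read 6.65 and 7.16 in contralateral total RNA, against 6.88 and 4.94 in normal total RNA. The amplified arrays read 6.68 and 7.03 in contralateral kidneys, against 6.50 and 4.97 in normal kidneys. The newly transcribed arrays read 6.85 in the contralateral and 4.35 in the normal kidney. Normal replicate 2 was the low array in both tested preparations, and the groups overlapped in total RNA but not in amplified total RNA. The difference was 0.99 ± 0.56 for total RNA (limma adjusted p = 0.448), 1.12 ± 0.56 for amplified total RNA (adjusted p = 0.247) and 1.34 ± 0.41 over all preparations (adjusted p = 0.213), none of which passed. Ucp3, the muscle member, was too dim to test and read 4.63 to 5.43 over the 10 arrays.

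Markers of adipose tissue were set beside Ucp1. Of 9 listed markers 7 were on the array and 4 were tested, and their summed signal was 0.0289% and 0.0321% of the array in contralateral total RNA, against 0.0244% and 0.0176% in normal total RNA. On the amplified arrays the sum was 0.0195% and 0.0239% in contralateral kidneys, against 0.0188% and 0.0161% in normal kidneys. In newly transcribed RNA it was 0.0399% in the contralateral kidney, against 0.0116% in the normal kidney. The contralateral sums were the higher ones in every preparation. Fabp4 was by far the brightest tested marker in them, with a mean log2 signal of 9.43, against 6.58 for Adipoq. Adipoq, the fat hormone adiponectin, read 7.10 and 7.21 in contralateral total RNA, against 7.04 and 6.26 in normal total RNA. Here too normal replicate 2 was the low one, as it was for Cidea and Fabp4. It was not for Retn, which read 5.82 and 6.48 in contralateral total RNA, against 6.17 and 6.10 in normal total RNA. On the amplified arrays Retn read 6.39 and 6.65 in contralateral kidneys, against 6.08 and 5.67 in normal kidneys. There normal replicate 2 was the low one for Retn too. No adipose marker passed by limma in total or amplified total RNA, with 1 and 2 of the 4 higher at an unadjusted p under 0.05, where 7.47% and 14.1% of all tested genes were higher (6.98% and 9.77% lower). In newly transcribed RNA 3 of the 4 were at least 2-fold higher, against 14.3% of all tested genes. The median difference of the 4 was 1.91, against 0.06. The exception was Cidea, at 0.22, with 5.24 in the contralateral and 5.02 in the normal kidney. The part of adipose RNA in the Ucp1 values was not tested.

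**Figure D4:**
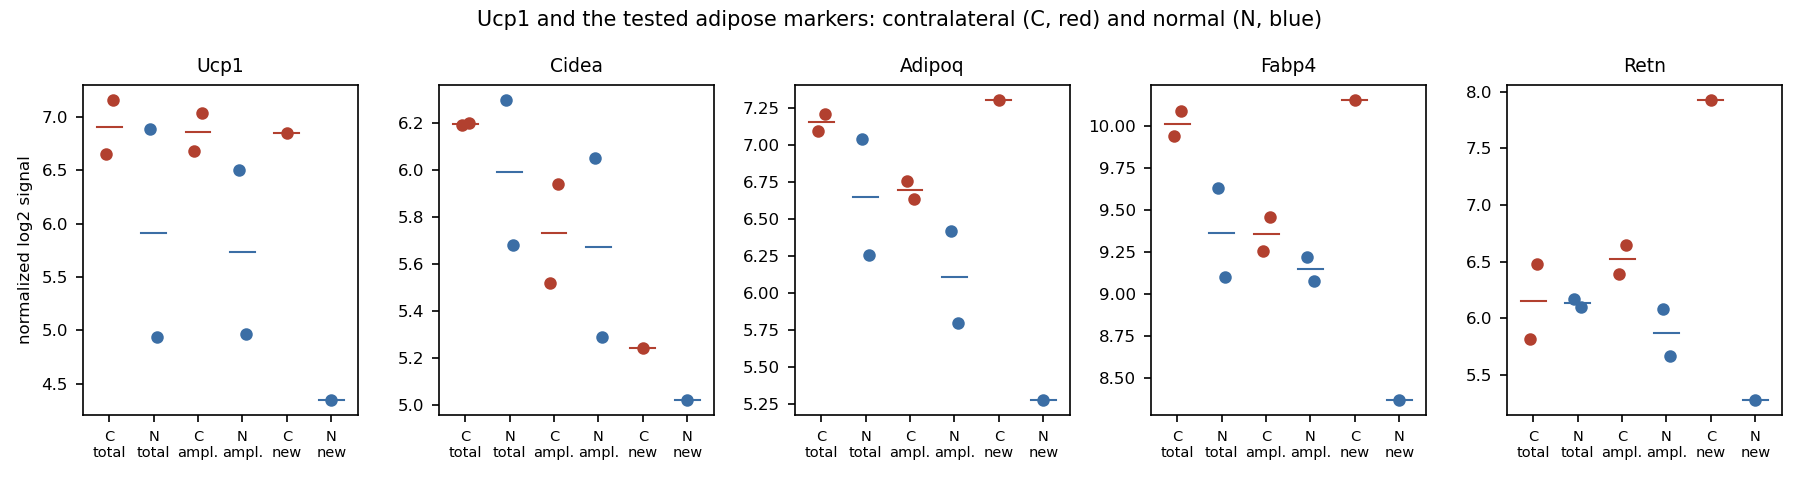
Normalized log2 signal (vertical axes, scaled per gene) of Ucp1 and the 4 tested adipose markers on each of the 10 arrays, for total, amplified total (ampl.) and newly transcribed (new) RNA, with red points for contralateral and blue points for normal kidneys and a bar at each group mean. Ucp1 has 1 normal array near 5 in both total and amplified total RNA, and in newly transcribed RNA Ucp1 lies at 6.85 in the contralateral kidney and 4.35 in the normal kidney.

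Genes that act beside the carriers were counted from lists, which were chosen with earlier results of these data known. Of 17 tested enzymes beside the carriers, in matrix, outer membrane or cytosol, 2 rose in total RNA, against 1.41% of all tested genes. They were Pdk4, the kinase that shuts off pyruvate dehydrogenase, by 2.59 ± 0.48 (limma adjusted p = 0.023) and Pck1, a cytosolic gluconeogenic enzyme, by 0.52 ± 0.11 (adjusted p = 0.0435). On the amplified arrays 2 of the 17 rose, against 4.9% of all tested genes, namely Pdk4 by 1.86 ± 0.48 (adjusted p = 0.0312) and Cpt2, which frees acyl groups from carnitine in the matrix, by 1.10 ± 0.11 (adjusted p = 0.000204). None of the 17 fell by limma in either, and at an unadjusted p under 0.05 also 0 were lower. Of 14 outer membrane channels and import proteins 0 passed in total RNA by limma, with 0 at an unadjusted p under 0.05, and in amplified total RNA only the channel Vdac3 fell, by 0.43 ± 0.11 on the log2 scale (adjusted p = 0.0371).

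Of 11 regulators of mitochondrial biogenesis 2 rose in total RNA, against 1.41% of all tested genes, and 2 fell in amplified total RNA, against 4.13%. Ppargc1a, the coactivator that drives mitochondrial genes, averaged 8.53 in contralateral and 7.74 in normal total RNA, but 7.38 in contralateral and 8.89 in normal amplified total RNA. Its effect in total minus that in amplified total RNA was 2.30 ± 0.17 (limma adjusted p = 2.73e-05). Ppara, a nuclear receptor for fatty acids, had 2.04 ± 0.24 for the same quantity (adjusted p = 0.000724), and both thus lay in the order seen for Slc25a30. Of 8 tested proximal tubule markers 1 fell in amplified total RNA, namely the endocytic receptor Lrp2 by 0.59 on the log2 scale (adjusted p = 0.0149). None of the tested thick limb, red blood cell or leukocyte markers passed in total RNA by limma, with 1, 0 and 0 above and 0, 0 and 1 below 0 at an unadjusted p under 0.05.

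Carriers also differed between RNA preparations within the same kidneys' groups. In amplified total against total RNA 9 of 33 carriers were higher and 7 lower. That is 27.3% higher against a background of 23%, and 21.2% lower against a background of 14.8%. Mpc1, the pyruvate carrier subunit, had a log2 signal of 8.38, 8.65, 8.19 and 8.10 in amplified total RNA (the first pair contralateral), against 10.17, 10.27, 10.23 and 10.22 in total RNA. The preparations did not overlap, and the difference was -1.89 ± 0.15 (limma adjusted p = 3.96e-05). Between contralateral and normal kidneys Mpc1 differed by -0.01 ± 0.12 for total RNA and 0.37 ± 0.12 for amplified total RNA, and neither passed.

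Slc25a23, another ATP-Mg carrier, lay at 6.69 to 6.93 in amplified total RNA, against 8.40 to 9.12 in total RNA, a difference of -1.80 ± 0.24 (limma adjusted p = 0.00036). Slc25a42, which carries coenzyme A, lay at 7.41 to 7.77, against 8.77 to 9.49 in total RNA, a difference of -1.61 ± 0.16 (adjusted p = 0.000101). Slc25a30 at -1.52 ± 0.53 and Slc25a25 at -1.12 ± 0.19 were the next lowest. For Slc25a30 the group means were 6.93 in amplified and 9.36 in total RNA of contralateral kidneys, and 7.87 in amplified and 8.47 in total RNA of normal kidneys, so the gap was wider in the contralateral group, by the 1.83 tested above. Its call was lost in 6 of the 10 fits that left out 1 array (adjusted p up to 0.136) and in 4 of 11 alternatives. Slc25a14, the brain-rich relative of the uncoupling proteins, was the highest of the carriers called, at 6.67 to 6.89 in amplified total RNA, against 5.44 to 6.03 in total RNA, a difference of 1.10 ± 0.23 (adjusted p = 0.00461). It was followed by Slc25a46 at 1.02 ± 0.29, Slc25a51 at 0.87 ± 0.18, the pyrimidine nucleotide carrier Slc25a36 at 0.80 ± 0.15 and Slc25a35 at 0.70 ± 0.14.

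Probe sets of a gene often disagreed here. Of the 24 further probe sets, 11 had another call than the gene's probe set of highest mean, and 2 were called in the opposite direction. These 2 were of Slc25a36, with 0.80 and -0.72 on the log2 scale, and of Slc25a10, with 0.63 and -0.46. For Slc25a39 the 3 probe sets gave -0.01, 0.52 and -1.04. The amplified arrays had the higher 3'/5' ratios in the same comparison, and their part in these values was not tested.

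In newly transcribed against amplified total RNA 4 of 33 carriers were higher and 5 lower. That is 12.1% higher against a background of 13.1%, and 15.2% lower against a background of 16.9%, so the carriers' shares were near those of all tested genes. Slc25a14 read 7.62 in contralateral and 8.81 in normal newly transcribed RNA, against 6.67 to 6.89 in amplified total RNA, a difference of 1.45 ± 0.28 (limma adjusted p = 0.00469). Slc25a36 read 11.03 in contralateral and 11.13 in normal newly transcribed RNA, against 9.61 to 10.18, a difference of 1.13 ± 0.18 (adjusted p = 0.00157). By these probe sets, both newly transcribed arrays were above the 4 amplified arrays. The other tested probe set of Slc25a36 read 5.77 in contralateral and 6.18 in normal newly transcribed RNA, against 5.96 to 6.33 in amplified total RNA, a difference of -0.12 ± 0.22 that did not pass (adjusted p = 0.697). Of the 24 further probe sets, 12 had another call here than the gene's probe set of highest mean and 0 were called in the opposite direction. Slc25a45 at 0.71 ± 0.20 and Slc25a15, the ornithine carrier, at 0.55 ± 0.15 were also higher.

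The carriers lower in newly transcribed RNA were Slc25a13 at -1.85 ± 0.42, Mpc1 at -1.27 ± 0.18, Slc25a11 at -1.20 ± 0.29, Slc25a35 at -0.61 and Slc25a5 at -0.43. The Slc25a5 call held in only 4 of 11 alternatives and in 2 of the 10 fits that left out 1 array, over which its value ran from -0.72 to -0.14. The Slc25a35 call held in 8 of 11 alternatives and in 6 of those 10 fits. Mpc1 read 7.35 in contralateral and 6.78 in normal newly transcribed RNA, against 8.10 to 8.65 in amplified total RNA, and was thus below all amplified arrays in both kidney groups. Slc25a13 was lowest on the contralateral newly transcribed array, at 6.29. Without the normal newly transcribed array 21 carriers were called (63.6%, against 50.4% of all tested genes), and without normal amplified replicate 2 only 5 were (15.2%, against 22.6%).

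**Figure D5:**
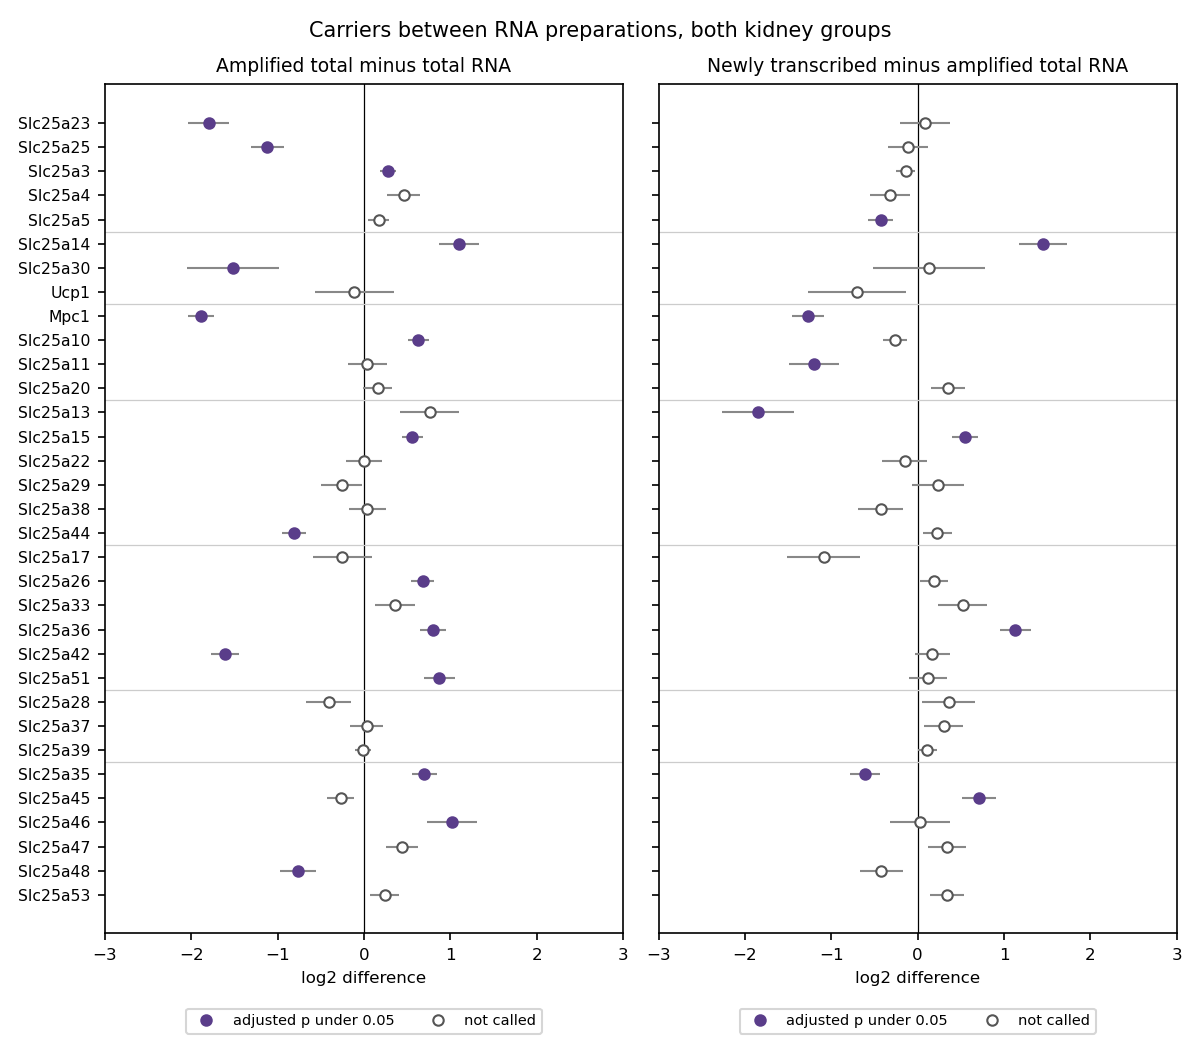
Log2 difference (horizontal axes) of the 33 tested carriers between RNA preparations over both kidney groups, amplified total minus total RNA on the left and newly transcribed minus amplified total RNA on the right, with bars for limma's standard error and rows set apart by role. Filled points passed an adjusted p of 0.05: 16 on the left, with Mpc1 lowest at -1.89 and Slc25a14 highest at 1.10, and 9 on the right.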

How the data were processed

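RNA of 10 kidney samples was measured on 1-colour Affymetrix arrays. Per the labels' protocols, RNA was labelled by a T7-based method with linear amplification. The authors deposited linear intensity values, 1 for each probe set on each array; how they were summarised and scaled is not given in the sources used here. To all deposited intensity values their 25th percentile, 11.8, was added before taking log2 and quantile normalizing, so a log2 difference understates changes of dim genes. After 64 control probe sets were set aside, probe sets with a mean above the 40th percentile were tested (13575 of 22690, covering 8300 genes with 1 symbol). Array values hold no read depth, so precision is limited by how many arrays there are.

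The platform annotation lists 21084 probe sets, 20393 with 1 symbol and 691 with several, and 1606, controls included, are not listed. All 69 carrier probe sets matched RefSeq, with 0 symbols changed. No carrier name came from a probe set with several symbols.

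The test was limma 3.58.1 under R 4.3.3 (lmFit and eBayes, intensity trend) on all 10 arrays, with Benjamini-Hochberg adjustment over the 13575 probe sets and a threshold of 0.05. Effects over all preparations and between preparations came from an additive model (6 residual degrees of freedom), and effects within a preparation from 6 group means (4 residual degrees of freedom). The newly transcribed arrays, 1 per kidney group, were compared without a test, and at least 2-fold is called. Contralateral effects within and over preparations share arrays. The arrays of a group are called biological replicates in the labels, which do not say whether equal numbers in different preparations are the same mouse, so p-values measure the spread between these arrays.

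Members, roles and lists were chosen with earlier results of these data known. Values on every array are given for carriers that passed a tested contralateral comparison, for the 3 with the highest mean signal and for Ucp1, Ucp3 and Mpc1. The 5 carriers with the largest called change each way are named between preparations. Alternatives changed the pseudocount, scaling, filter, probe set choice, trend, replicate block, model, and samples in the fit. The fits were tested on simulated data.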

Additional observations from a re-analysis of the deposited data

Results flagged for a closer look

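The contralateral effect on Slc25a30 differed between RNA preparations by a test of the difference itself. On the log2 scale it was 0.88 ± 0.17 on the arrays titled total RNA and -0.95 ± 0.17 on those titled amplified total RNA, and the effect in total minus that in amplified total RNA was 1.83 ± 0.24 (limma adjusted p = 0.00132). Its 3 tested probe sets gave 1.20 to 1.90 for this quantity.

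The same test passed for Slc25a38, with -0.97 ± 0.24 (limma adjusted p = 0.0484). Its effects were -0.50 ± 0.17 for total RNA and 0.47 ± 0.17 for amplified total RNA, and neither passed by itself. It no longer passed with a pseudocount of 1 (adjusted p = 0.0552).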

How the results depend on the processing

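Of 47 gene results, each refitted under its alternatives, 692 of 796 refits kept the call and direction, 104 lost the call and 0 reversed direction. Slc25a33 kept its calls in total and amplified total RNA in all 9 alternatives and in all 10 fits that left out 1 array.

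The number of carriers called over all preparations was 1. It was 2 without the newly transcribed arrays, 18 with 6 group means (7 higher and 11 lower, a model under which 44% of all tested genes passed), and 0 to 2 when 1 array was left out. In total RNA it was 2, falling to 1 without the filter on dim probe sets and to 1 without the intensity trend, and it was 1 to 2 when 1 array was left out. In amplified total RNA it was 6, against 3 without the intensity trend and 1 to 8 when 1 array was left out. For the effect in total minus that in amplified total RNA it was 2, against 1 with a pseudocount of 1, 1 without the filter, 1 without the trend and 1 to 2 when 1 array was left out. In amplified total against total RNA it was 16, and 12 to 22 when 1 array was left out. In newly transcribed against amplified total RNA it was 9, against 16 with 6 group means, 4 with only the arrays of the compared preparations, and 5 to 21 when 1 array was left out. With 6 group means the newly transcribed groups, of 1 array each, add nothing to the estimate of spread, though their difference enters the effect. The cause of these changes was not tested. The 11 carriers at 2-fold in newly transcribed RNA stayed within 1.5 times that number under all 6 alternatives run.

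The replicate numbers were not shown to pair the arrays: deviations of arrays with equal numbers correlated at 0.10 across 13575 probe sets between total and amplified total RNA of either kidney group, and at -0.07 to 0.04 in the other pairs of groups. With the replicate block the counts were 1 over all preparations, 2 for total RNA, 7 for amplified total RNA, 2 for the difference, 15 in amplified total against total RNA and 5 in newly transcribed against amplified total RNA. With the replicate block nested in kidney the last count was 4.

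With 2 arrays per group or 1, small differences could not be resolved. No detection calls were used, so no carrier is described as absent.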
